A study of Rattus norvegicus with 16 samples.

Results

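The Nr4a family of orphan nuclear receptors was followed in bulk RNA from the nucleus basalis of Meynert of stressed and control rats of both sexes. The family consists of 3 genes, taken by Ensembl identifier from the 32883 gene rows of the deposited count files: Nr4a1 (Nur77, ENSRNOG00000007607), Nr4a2 (Nurr1, ENSRNOG00000005600) and Nr4a3 (Nor1, ENSRNOG00000005964). Each identifier lay on the chromosome given for its gene, so all 3 were kept, and all 3 passed the filter on low counts, among 14241 genes tested. All rats were Long Evans animals of the ChAT::Cre line, labelled with an age of 70 days or more, and controls carried the same transgene as stressed animals. The groups were stressed females (FS), control females (FC), stressed males (MS) and control males (MC), with 4 libraries each, named here by title number and group. The ChAT::Cre line expresses Cre recombinase under control of the choline acetyltransferase gene, the enzyme of acetylcholine synthesis. The kind and timing of the stress are not given in the sources used here. The labels do not say whether 1 animal stands behind each library, so the p-values below speak of differences against the spread among the libraries at hand, part of which may be technical.

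Nr4a receptors are transcription factors that bind DNA through a zinc finger domain and act largely without a classical ligand, so that their output is set mainly by how much of each protein is made. In neurons their genes are immediate early genes: calcium and cAMP signals induce them quickly through factors such as CREB, without new protein synthesis. Nr4a1 is the most widely inducible member, also in endocrine and vascular cells. Nr4a2 is in addition expressed steadily in some neurons and is needed for the development and upkeep of midbrain dopamine neurons. Nr4a3 is likewise induced by activity and hormones. The nucleus basalis of Meynert is a basal forebrain region whose cholinergic neurons project to the cortex.

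The stretches before the listed starts of Nr4a1 and Nr4a2 are shown to describe how their letters differ. Whether either stretch is the promoter used in this tissue is not known, and no relation between these sequences and the expression values was tested. RefSeq promoter entries of the build GRCr8, matched by symbol, were found for 2 of the 3 members, Nr4a1 and Nr4a2. Shown are the 250 bases before the start, 5′ to 3′ on the gene's strand, with capitals for TGCGTCA and for TGACG, the core of the cAMP response element that CREB binds. The Nr4a1 stretch is chr7:134259888-134260137, plus strand, and the Nr4a2 stretch is chr3:62104888-62105137, minus strand.
Nr4a1: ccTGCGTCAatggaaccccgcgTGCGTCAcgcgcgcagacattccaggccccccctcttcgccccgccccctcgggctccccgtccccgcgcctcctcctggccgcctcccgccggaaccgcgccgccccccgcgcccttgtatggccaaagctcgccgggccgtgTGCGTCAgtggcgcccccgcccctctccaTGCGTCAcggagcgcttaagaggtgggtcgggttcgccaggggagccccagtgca
Nr4a2: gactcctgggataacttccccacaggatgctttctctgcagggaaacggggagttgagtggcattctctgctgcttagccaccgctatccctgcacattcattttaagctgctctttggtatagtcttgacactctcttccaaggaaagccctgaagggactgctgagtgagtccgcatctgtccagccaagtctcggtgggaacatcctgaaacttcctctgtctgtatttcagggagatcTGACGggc

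Searched on both strands, TGACG occurred 4 times in the Nr4a1 stretch and 1 time in that of Nr4a2. At least 1 copy stood in 18.2% of the 33465 promoters of the same length, and 4 or more copies in 0.173%. All 4 copies in Nr4a1 read CGTCA on the printed strand and lay inside TGCGTCA, whose opposite strand holds TGACG, so both motifs count the same places. These places began 248, 228, 84 and 55 bases before the start. TGCGTCA, a motif chosen after this sequence was seen, stood in 1.66% of promoters and was absent from the Nr4a2 stretch. Nr4a1 was the 1 promoter of 33465 with 4 or more copies of it. The full palindromic element TGACGTCA (in 1.59% of promoters), AAAGGTCA, the site that Nr4a proteins themselves bind as monomers (1.24%), TGANTCA (6.34%) and TATAAA (12.9%) had 0 matches in both stretches. The CArG box bound by serum response factor, searched strictly as CCWWWWWWGG with W for A or T (1.497%), also had 0 matches in both. Near matches were not counted, such as ccttgtatgg in the Nr4a1 stretch, which has a G in the core. The Nr4a1 stretch had 74.8% G and C, above 51.2% in the median promoter, and the Nr4a2 stretch had 52.0%. The table gives 1 start per gene, which for both genes lay inside the longer gene span that RefSeq annotates on GRCr8 (by 12.98 kb for Nr4a1 and 11.04 kb for Nr4a2). These distances do not apply to the Rnor_6.0 coordinates given below. The expression data do not tell which start was used, and these matches describe letters only. Other starts of either gene were not searched, so the few matches in the Nr4a2 stretch do not show that Nr4a2 promoters lack these sites.

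In the annotation used for the counts (Rnor_6.0), Nr4a1 lies on chromosome 7 at 142905758 to 142920216 (plus strand), with 2660 exon bases. Nr4a2 lies on chromosome 3 at 43111240 to 43119159 (minus strand), with 3375 exon bases. Nr4a3 lies on chromosome 5 at 63781801 to 63821637 (plus strand), with 4394 exon bases. Each gene has 8 exon regions once overlapping exons are merged, and 0 other annotated genes overlap any of them. Counts were made over these exons, so coding and untranslated parts are pooled.

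Library totals were 22.7 to 38.2 M counts (M, mega) in the 13 libraries counted with HTSeq, and 63.1 to 73.8 M in the 3 counted with featureCounts, namely 10FC, 11MS and 20MC. Mitochondrial genes took 64.2% to 82.5% of them, which left 5.86 to 22.6 M nuclear counts. Libraries 7FC and 14MS had 40.8% and 38.8% of reads not aligned, against 13.2% to 15.4% in the other HTSeq libraries, and 1FS had 31.2% of reads outside genes, against 10.2% to 22.03%. The title numbers of the stressed females differ from the numbers that come with their counts, which leaves the groups as they are. The files hold identifiers without gene names, and 0 of 47357 genes in the name table at hand carry an Ensembl identifier. The tissue label was therefore not checked against marker genes, and other genes of the Nr4a pathway were not analysed here.

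The genes were counted 54 to 456 times per library, with 89 to 456 counts for Nr4a1, 77 to 362 for Nr4a2 and 54 to 197 for Nr4a3. Counting alone then gives a relative error of 4.68% to 13.6%, with each count taken as independent. In the featureCounts libraries the mates of a read pair were counted singly, so their error can be understated. Levels are given as CPM, counts per M counts of the library after TMM scaling. Compared per length, over all 16 libraries, Nr4a1 averaged 2.12 CPM per kb of exon, Nr4a2 1.12 and Nr4a3 0.589. These levels stood at percentiles 51.3, 35.8 and 22.8 of the 14241 genes tested. On average the family was thus of middling to low abundance in these libraries, in the order Nr4a1, Nr4a2, Nr4a3. This order held in the mean of each group but not in every library. Per kb, Nr4a2 lay above Nr4a1 in the controls 18MC and 20MC, and Nr4a3 lay just above Nr4a2 in 1FS.

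Stress raised Nr4a1. Its level was 5.47, 5.88, 6.59 and 8.21 CPM in the stressed females 3FS, 2FS, 4FS and 1FS. In the control females 8FC, 6FC, 10FC and 7FC it was 3.19, 3.23, 3.59 and 5.03 CPM. All stressed females lay above all control females, though the highest control, 7FC, came close to the lowest stressed library, 3FS. In the stressed males 12MS, 13MS, 11MS and 14MS the level was 7.10, 7.24, 8.63 and 9.40 CPM. In the control males 18MC, 16MC, 20MC and 17MC it was 2.28, 4.72, 4.74 and 4.83 CPM. All stressed males lay above all control males, with a wide gap. Complete separation in this direction was found for 1.72% of all genes tested in females, for 2.96% in males and for 0.14% in both sexes at once. In bulk tissue, more RNA per cell and more cells that hold the transcript cannot be told apart.

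**Figure D1:**
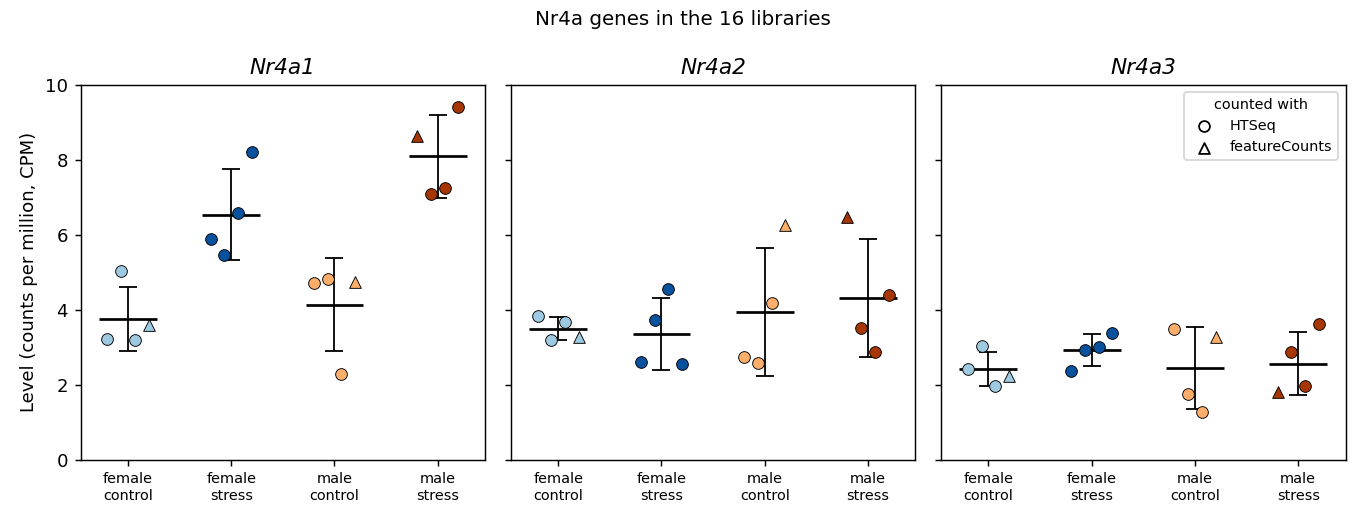
Levels of Nr4a1, Nr4a2 and Nr4a3 in CPM (y axis) in the 4 groups (x axis). Each point is a library (circles counted with HTSeq, triangles with featureCounts), the long bar is the group mean and the error bar 1 SD (n = 4). Nr4a1 shows stressed libraries above all controls of their sex, while the groups overlap for Nr4a2 and Nr4a3. The highest Nr4a2 values are the triangles of the male groups.

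Averaged over the sexes, Nr4a1 rose 1.85-fold with stress (95% interval 1.504 to 2.27, log2 fold change 0.89, SE 0.14, adjusted p = 0.00188 by edgeR's quasi-likelihood test). This average effect tests the mean of the female and male effects. It was called (adjusted p under 0.05) for 0.337% of the 14241 genes and as a rise for 0.232%, and Nr4a1 ranked 15th by p. An exact two-sided permutation of the stress labels within each sex, added after the data were seen, gave p = 0.000408 for Nr4a1, the smallest that its 4900 relabelings allow. The call held in each of 24 alternative fits, with log2 fold changes of 0.78 to 0.96 and adjusted p up to 0.0191. That highest value came from the 13 HTSeq libraries alone (log2 fold change 0.90). Without 7FC, 14MS and 1FS, the libraries that stood apart in alignment or in reads outside genes, the average effect was 0.86 on the log2 scale (adjusted p = 0.00834 by edgeR).

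Within a single sex the rise of Nr4a1 was of like size but did not pass the test over all genes. In females the mean went from 3.76 ± 0.86 to 6.54 ± 1.2 CPM (SD, n = 4), a 1.75-fold difference (95% interval 1.30 to 2.35, adjusted p = 0.273 by edgeR). Of all genes, 0.0632% were called in females. In males the mean went from 4.14 ± 1.2 to 8.09 ± 1.1 CPM (SD, n = 4), a 1.96-fold difference (95% interval 1.46 to 2.61, adjusted p = 0.0526 by edgeR), where 0.119% of genes were called. Nr4a1 ranked 32nd by p in females and 18th in males. The male value sits at the threshold: leaving out single libraries gave adjusted p of 0.0372 (without 1FS) to 0.250 (without 11MS) by edgeR, without 7FC it was 0.0383, and with mitochondrial genes removed it was 0.0490. With no filter on low counts the adjusted p was 0.00486 in females and 8.13e-05 in males by edgeR. The log2 fold changes hardly moved, at 0.80 and 0.96. Genes called rose from 9 to 105 in females and from 17 to 88 in males, so the gain was not particular to Nr4a1. The exact two-sided permutation test of the level gave p = 0.0286 in each sex, the smallest that 4 against 4 libraries allow. This p was not adjusted over the 6 such comparisons of a gene in a sex.

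Whether the Nr4a1 response differed between the sexes was tested as an interaction. The female minus male difference of the log2 fold changes was -0.16 (95% interval -0.75 to 0.43, adjusted p = 1.0 by edgeR). The interval therefore does not settle whether the responses were alike. By edgeR this interaction was called for 0% of all genes, while 571 (4.01%) had an unadjusted p below 0.05, and the calls were 1 by DESeq2 and 0 by limma voom. Library 18MC held the lowest Nr4a1 level of the male controls, and when it was left out the difference was 0.05 and the male effect 0.76 on the log2 scale (adjusted p = 0.215 by edgeR).

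Nr4a2 showed no shift of its mean with stress beyond the spread of the libraries. The stressed females 1FS, 2FS, 3FS and 4FS had 2.57, 2.60, 3.74 and 4.56 CPM. The control females 7FC, 10FC, 8FC and 6FC had 3.20, 3.28, 3.67 and 3.85 CPM. The controls fell inside the range of the stressed females. The stressed males 13MS, 12MS, 14MS and 11MS had 2.87, 3.51, 4.39 and 6.47 CPM, and the control males 17MC, 16MC, 18MC and 20MC had 2.57, 2.74, 4.19 and 6.26 CPM. The male groups overlapped almost completely. The average stress effect was 1.02-fold (95% interval 0.781 to 1.34, adjusted p = 0.976 by edgeR), so a rise as large as the fitted 1.85-fold of Nr4a1 lies outside this interval. In females the log2 fold change was -0.05 (95% interval -0.61 to 0.51) and in males 0.12 (95% interval -0.42 to 0.67).

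The highest 2 Nr4a2 levels of all 16 libraries, 6.47 CPM in 11MS and 6.26 CPM in 20MC, came from libraries counted with featureCounts. The third such library, 10FC, had 3.28 CPM, within the 2.57 to 4.56 CPM of the 13 HTSeq libraries. One of the high libraries was stressed and the other a control. The part of the counting tool in these levels was not tested apart from the fold changes: with the tool as a term in the fit the female log2 fold change of Nr4a2 was 0.09 (adjusted p = 0.994 by edgeR). For Nr4a1 the same 3 libraries ran from 3.59 to 8.63 CPM and followed their stress labels. For Nr4a3 they ran from 1.82 to 3.28 CPM, within the HTSeq range of 1.27 to 3.61 CPM.

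Nr4a3 was the least abundant member on average and did not pass the test either. The stressed females 2FS, 3FS, 4FS and 1FS had 2.36, 2.94, 3.02 and 3.38 CPM, and the control females 8FC, 10FC, 6FC and 7FC had 1.98, 2.23, 2.43 and 3.03 CPM. The stressed females lay mostly above the controls, but the groups overlapped. The control 7FC lay above 2FS, 3FS and 4FS, and the control 6FC lay above 2FS. The stressed males 11MS, 13MS, 12MS and 14MS had 1.82, 1.96, 2.88 and 3.61 CPM, and the control males 18MC, 17MC, 20MC and 16MC had 1.27, 1.75, 3.28 and 3.49 CPM. The male groups overlapped over nearly their whole range. The average stress effect was 1.12-fold (95% interval 0.849 to 1.48, adjusted p = 0.835 by edgeR). In females it was 1.22-fold (95% interval 0.822 to 1.80) and in males 1.03-fold (95% interval 0.697 to 1.53). The interval in females includes the 1.75-fold fitted for Nr4a1 there, whereas the average and male intervals lie below the values fitted for Nr4a1. In males the Nr4a1 interval itself (1.46 to 2.61) overlaps that of Nr4a3. Differences between the genes were not tested.

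Counted over the family, 1 of 3 genes rose and 0 fell on average over the sexes, where 0.337% of all genes were called and 0.232% rose. In females, where 0.0632% of all genes were called, and in males, where 0.119% were, 0 of 3 members were called. The median average effect of the 3 genes was that of Nr4a3, 0.16 on the log2 scale, against 0.01 over all genes tested. That value ran from 0.05 without 18MC to 0.27 without 16MC.

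**Figure D2:**
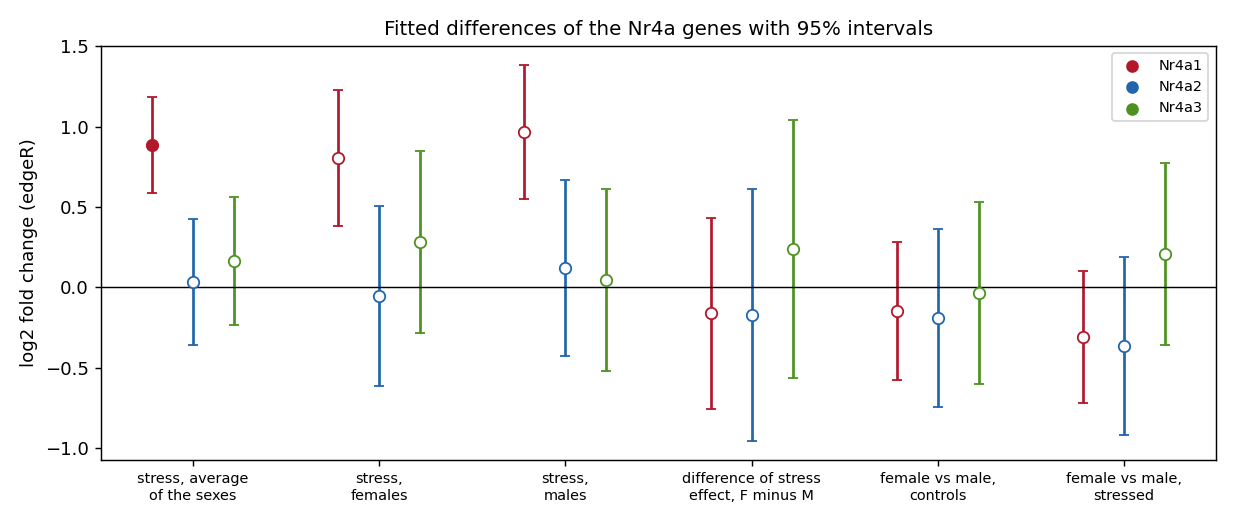
Fitted log2 fold changes (y axis, edgeR) of the 3 genes in each comparison (x axis), with 95% intervals. Filled points passed an adjusted p of 0.05, open points did not. Nr4a1 on average over the sexes, at 0.89, is the filled point, and the Nr4a1 intervals in females and in males also lie above 0.

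Females and males were also compared directly, and 0 of 3 genes differed between the sexes by edgeR. In controls the log2 fold changes, female against male, were -0.15 for Nr4a1 (95% interval -0.57 to 0.28), -0.19 for Nr4a2 (95% interval -0.74 to 0.36) and -0.03 for Nr4a3 (95% interval -0.60 to 0.53), where 0.112% of all genes were called. Under stress they were -0.31 for Nr4a1 (95% interval -0.72 to 0.10), -0.36 for Nr4a2 (95% interval -0.92 to 0.19) and 0.21 for Nr4a3 (95% interval -0.36 to 0.77), where 0.0913% were called. Single libraries moved the values under stress, to -0.55 without 4FS and -0.08 without 11MS for Nr4a2, and to 0.06 without 11MS and 0.41 without 14MS for Nr4a3. The female and male libraries overlapped for every member in both settings, where 3.35% of all genes did not overlap in controls and 3.76% under stress. Ordered by mean Nr4a1 level, the groups ran from MS over FS and MC to FC, and the neighbours MS and FS, and MC and FC, did not pass the test between the sexes, while FS and MC were not compared.

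The mix of the family within a library does not depend on library size. Per kb of exon, Nr4a1 made up 59.6% ± 6.4 of the summed family level in stressed females and 46.7% ± 5.2 in control females (SD, n = 4). The libraries ran from 53.6% to 66.9% under stress and from 41.8% to 53.6% in controls, so the groups met at the edge. In males the share was 62.4% ± 4.0 under stress and 47.5% ± 11 in controls (SD, n = 4), with overlap, as 17MC reached 61.0%. Nr4a2 made up 24.3% ± 6.3 in stressed and 35.0% ± 6.0 in control females, and in males 25.6% ± 6.0 under stress and 36.0% ± 13 without it (SD, n = 4). Nr4a3 stayed the smallest part in group means, at 12.0% to 18.2%. The summed level itself was 4.12 ± 0.53 CPM per kb in stressed and 3.00 ± 0.36 in control females, and in males 4.90 ± 0.83 under stress and 3.28 ± 0.84 without it (SD, n = 4). These shares and sums are given as a description without a test. Library 18MC had the lowest Nr4a1 share, 35.9%, and the highest Nr4a2 share, 52.0%, of all 16.

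**Figure D3:**
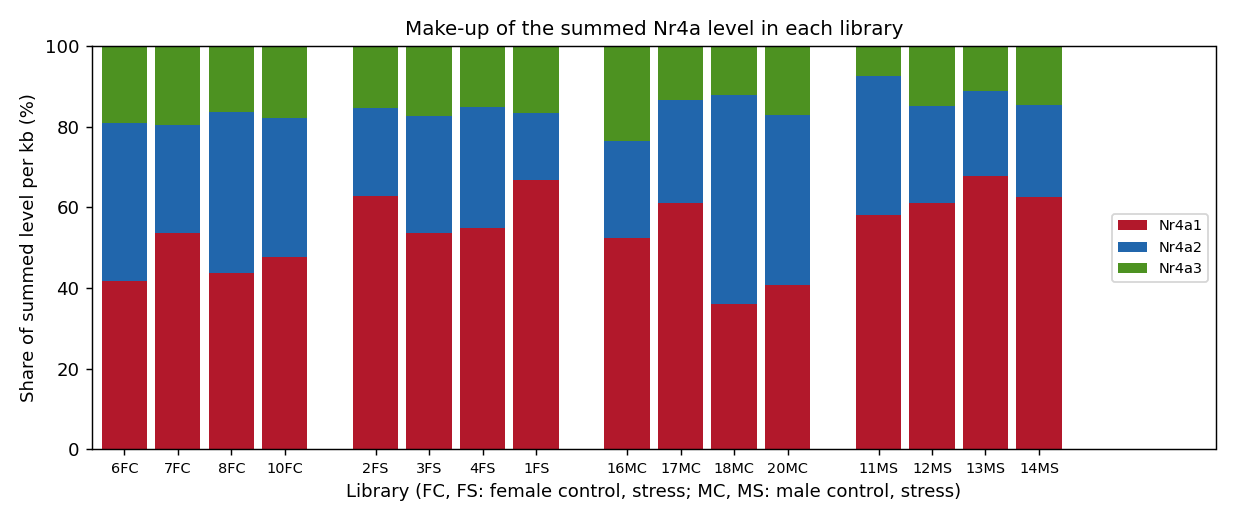
Make-up of the summed Nr4a level per kb of exon (y axis, percent) in each library (x axis, grouped by sex and stress). Red, blue and green stand for Nr4a1, Nr4a2 and Nr4a3. The red part is 53.6% to 66.9% in stressed females and 58.2% to 67.8% in stressed males, and 35.9% to 61.0% in the controls of both sexes.

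Spread between libraries of a group differed among the genes. The coefficient of variation of Nr4a1 was 13.7% in MS, 18.5% in FS, 23.0% in FC and 30.0% in MC. Counting errors averaged 6.01% to 8.83%, with each count taken as independent. The coefficient of Nr4a2 ran from 8.86% in FC, where counting alone gives at least 9.08%, to 43.4% in MC. That of Nr4a3 ran from 14.5% in FS to 45.1% in MC. Male controls were the most variable group for each of the genes. For Nr4a1 this rests on 18MC, at 2.28 CPM, since 16MC, 20MC and 17MC lay between 4.72 and 4.83 CPM.

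Members were also compared for whether they rose and fell together from library to library, as a description over libraries that share groups and scaling. Log2 levels of Nr4a1 and Nr4a3 had a Pearson r of 0.48 (Spearman 0.31) over the 16 libraries, of 0.66 after subtraction of group means and of 0.67 over the 13 HTSeq libraries. Without 14MS and 18MC, the 2 libraries farthest from the median Nr4a1 level, the r of 0.48 fell to 0.11, so that it rests on those libraries. Without 7FC and 18MC, the 2 farthest from their group means, the within-group r of 0.66 became 0.44. Library 18MC held the lowest level of both genes. Libraries 7FC, 14MS and 1FS, which stood apart in alignment or in reads outside genes, held the highest levels of both genes in their groups. The part of these library features in the correlation was not tested. Nr4a1 and Nr4a2 gave an r of 0.05, and -0.10 after subtraction of group means. Nr4a2 and Nr4a3 gave -0.02 and 0.03.

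**Figure D4:**
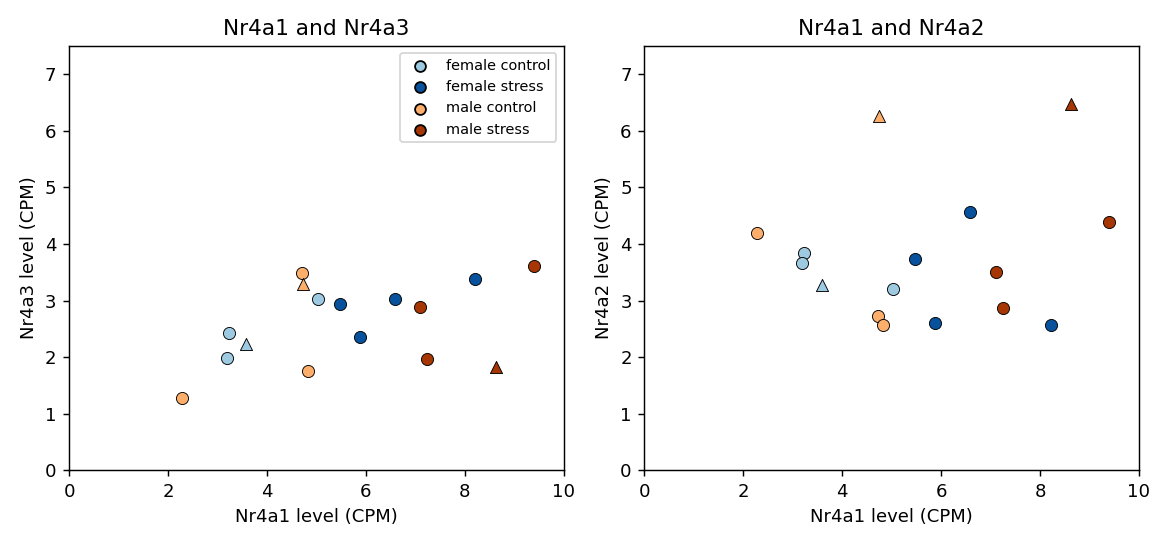
Nr4a1 level in CPM (x axis) against the level of Nr4a3 (left, y axis in CPM) and of Nr4a2 (right, y axis in CPM) in 16 libraries. Colours give the group, and triangles mark the 3 featureCounts libraries. The lowest point for both Nr4a1 and Nr4a3 is the male control 18MC, at 2.28 and 1.27 CPM. The highest Nr4a2 points are the triangles at 6.26 and 6.47 CPM.

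By correlation of log2 levels over the 16 libraries, the genes most like Nr4a1 were one on chromosome 4 at 168752133 to 168755023 (Pearson r of 0.83) and one on chromosome 4 at 148398892 to 148446303 (0.80). The first of these rose by 3.24 on the log2 scale with stress on average over the sexes (adjusted p = 1.3e-10 by edgeR). Its r with Nr4a1 was only 0.25 after subtraction of group means, so the likeness lay mostly between the groups. For the second it was 0.56, with a log2 fold change of 0.54 (adjusted p = 0.278 by edgeR). Nr4a2 was most like genes on chromosome 8 at 52127399 to 52189722 (0.81) and on chromosome 18 at 13386133 to 13491735 (0.81). Over the HTSeq libraries these were 0.61 and 0.82. Nr4a3 was most like genes on chromosome 16 at 74752655 to 74779184 (0.83, with a mean level of only 0.371 CPM) and on chromosome 2 at 34290199 to 34313094 (0.76). After subtraction of group means r was 0.82 and 0.81 for the genes most like Nr4a2, and 0.85 and 0.76 for those most like Nr4a3, so this likeness lay within groups. As the highest of 14240 correlations over 16 libraries, these values are high by selection.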

How the data were processed

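Bulk RNA of 16 libraries was measured (NuGen Ovation RNA-Seq System v2, Illumina HiSeq4000, paired ends, per the labels' protocols). The authors deposited raw counts per Ensembl gene. The aligner was STAR 2.5.2a on the build Rnor_6.0 and HTSeq a counter, per the submitters' processing notes, which also list bedtools, limma and DESeq. Per the file headers, 3 libraries were counted with featureCounts 1.6.1 on Ensembl release 92, with mates counted singly and without strand, and these headers also give exon length. Whether the HTSeq counts used strand is not given in the sources used here. In the HTSeq files 44.8% to 64.7% of entries stood on lines for reads without a gene, which were left out.

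The counts were tested with edgeR 4.0.16 in R 4.3.3 (TMM, filterByExpr, robust quasi-likelihood, 4 group means over 16 libraries), on all genes, with Benjamini-Hochberg adjustment. SE is that of the log2 fold change, and intervals use the fit's degrees of freedom. Levels were also compared by exact permutation of log2(CPM + 0.5). Alternatives used DESeq2 1.42.0, limma 3.58.1 (voom), other scalings and filters, the tool as a term, HTSeq libraries only and each library left out. A Benjamini-Hochberg adjustment of the exact p over the 6 comparisons was planned but not made. The members and lists were chosen with earlier results of these data known, and no p-value given here allows for that choice. Of genes other than members, by rule, the 2 most correlated with each member were given, by position. The lists of pathway genes and cell type markers could not be applied without gene names.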

Additional observations from a re-analysis of the deposited data

Results flagged for a closer look

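Of 12 groups of 4 libraries screened (3 genes in 4 groups), 1 held a library far from the others. The screen used Dixon's ratio of gap to range, with a critical value of 0.829 for 4 libraries. At that value chance alone flags about 1 group in 20, and whether this flag arose by chance was not tested. In 18MC, a male control, Nr4a1 had 2.28 CPM, while its level in 16MC, 17MC and 20MC was 4.72 to 4.83 CPM. Its 97 counts give a counting error of 10.2%. This library also had the lowest Nr4a3 level of all 16, 1.27 CPM, and 22.03% of reads outside genes, against 16.6% and 19.0% in the other HTSeq male controls. Their part in the low value was not tested. Without 18MC the average log2 fold change of Nr4a1 was 0.78 (adjusted p = 0.00191 by edgeR).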

How the results depend on the processing

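The rise of Nr4a1 on average over the sexes kept its direction and its call in all 24 alternatives, and its direction in females and in males alone in all 24 alternatives of each. In males it passed the threshold without 1FS or 7FC, with mitochondrial genes removed, with no filter, by DESeq2 (adjusted p = 0.00427), by limma voom (adjusted p = 0.0477) and with males fitted alone (adjusted p = 0.049999). In females it passed with no filter; by DESeq2 the adjusted p was 0.0795. Nr4a2 and Nr4a3 passed in no alternative, while the direction of the change reversed in some alternatives for Nr4a2 on average, in females and in males and for Nr4a3 in males. The direction held in every alternative for Nr4a3 on average (0.05 to 0.31) and in females (0.20 to 0.40), and for both genes between the sexes under stress. Within a sex, or between the sexes under stress, leaving out a library of another group hardly moved the fold change. Those alternatives therefore say little about direction. No paired analysis was possible because the groups share no replicate numbers.

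Against 48 genes called on average, 9 in females, 17 in males, 0 for the interaction, 16 for the sexes in controls and 13 under stress, no filter on low counts gave 207, 105, 88, 36, 54 and 105. DESeq2 gave 103 on average, 27 in females, 31 in males and 1 for the interaction, and limma voom gave 11 in males. HTSeq libraries alone gave 29 on average, 14 in females, 5 in males and 10 for the sexes in controls, and males fitted alone gave 27. Leaving out each library in turn gave 28 to 56 on average and 7 to 21 in males.

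Directions reversed in the HTSeq libraries for the interaction of Nr4a3 (-0.13) and the sexes in controls for Nr4a2 (0.17) and Nr4a3 (0.20), by limma voom for Nr4a3 in controls (0.019) and with the tool as a term for Nr4a2 in females (0.094). Leaving out single libraries moved the log2 fold change of Nr4a2 over -0.11 to 0.20 on average, -0.23 to 0.057 in females, -0.16 to 0.45 in males, -0.50 to 0.11 for the interaction and -0.34 to 0.13 for the sexes in controls. It moved that of Nr4a3 over -0.18 to 0.25 in males and -0.25 to 0.18 for the sexes in controls, and the interaction of Nr4a1 over -0.28 to 0.045. The cause was not tested.

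The difference in mean log2(CPM + 0.5) of Nr4a1 in males was 0.97 in the HTSeq libraries (exact permutation p = 0.1, the smallest that 3 against 3 allow). Without single libraries it was 0.62 to 0.86 in females, with exact permutation p up to 0.0571. For Nr4a2 it was -0.22 to 0.022 in females and -0.060 to 0.36 in males, and for Nr4a3 in males -0.12 to 0.27. Depth gave each gene 54 to 456 counts, so counting error alone reaches 13.6%.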
